A study of Mus musculus with 8 samples.

Results

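The Ifi200 family is a cluster of genes on mouse chromosome 1 for proteins that carry a DNA-binding HIN domain, most of them together with a pyrin domain. Its 8 members described here, Aim2, Pyhin1, Ifi204, Mndal, Mnda, Ifi203, Ifi202b and Ifi205, were taken by gene symbol from a table of 24062 genes, and all 8 passed the filter that left 13197 genes for testing. The set was chosen by the read counts of Ifi202b, which were near 0 in some of these groups, so its levels are a description and it was not tested. The other 7 members were tested in the fit over all genes.

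The data are read counts per gene from total RNA of immature myeloid cells (IMCs), obtained by growing marrow cells for 3 days in 40 ng/mL M-CSF, from mice aged 2 months. Each of the 4 groups had 2 libraries: PARP1 WT (PARP1 flox/flox), PARP1CKO (PARP1 flox/flox with lysozyme-Cre), PARP2 WT (PARP2 flox/flox) and PARP2CKO (PARP2 flox/flox with lysozyme-Cre). All 8 libraries are labelled C57BL/6, and the WT mice carry the floxed allele without Cre. Lysozyme-Cre acts in the myeloid lineage, so cells of other lineages in the culture keep the gene. The sources used here do not say whether the 2 libraries of a group came from separate animals, so p-values measure the spread between libraries only.

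Library totals lay between 37852450 and 61845125 counts. Parp1 was at 202 and 211 CPM (read counts scaled to the TMM-adjusted library size) in PARP1 WT IMCs and at 63.2 and 59.1 CPM in PARP1CKO IMCs, a log2 fold change of -1.75 (adjusted p = 0.0134, and up to 0.0753 without 1 library). In the PARP2 line, Parp1 was at 251 and 155 CPM in the WT libraries and at 263 and 264 CPM in the CKO libraries. Parp2 was at 48.2 and 48.3 CPM in PARP2 WT IMCs and at 25.7 and 25.6 CPM in PARP2CKO IMCs (log2 fold change -0.91, adjusted p = 0.000139). Of the immature myeloid markers, 7 (such as Itgam and Csf1r) summed to 3946 to 4602 CPM over the 8 libraries (the PARP2 WT libraries at 4235 and 4294 CPM, the PARP2CKO libraries at 4602 and 4313 CPM). Cd68, at 1546 to 1957 CPM, is part of this sum and is also among the macrophage markers summed below. Ly6g, also a listed immature myeloid marker, was not among the counted genes. Lyz2, the lysozyme gene that hosts the Cre, was taken apart from these markers after its values were seen. Its PARP2 WT libraries had 9725 and 10804 CPM and its PARP2CKO libraries 6742 and 5747 CPM, while its PARP1 WT libraries had 5712 and 6387 CPM and its PARP1CKO libraries 3495 and 4334 CPM. Markers of B cells summed to 29.5 to 43.0 CPM in the 4 libraries of the PARP1 line and to 8.15 to 11.4 CPM in those of the PARP2 line, with none of the 7 B cell markers at 0 in any library. In bulk RNA, fewer cells of a type and less RNA per cell cannot be told apart.

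As background, Aim2 binds double-stranded DNA in the cytosol and assembles an inflammasome through Pycard (ASC), which activates caspase-1. Ifi204, the mouse relative of human IFI16, is known as a sensor of DNA that acts ahead of STING. Ifi202b has HIN domains but no pyrin domain and is known to restrain the Aim2 inflammasome. Many members are induced by interferon, and Ifi202b is known to differ between inbred mouse strains, being near silent in C57BL/6.

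Positions are those of RefSeq on GRCm38.p6 (mm10), and RefSeq lists Pyhin1 as Ifi209 and Mnda as Ifi211. From low to high coordinates, Aim2 lies at chr1:173349547-173466040, Pyhin1 at chr1:173630859-173647928, Ifi204 at chr1:173747293-173767069 and Mndal at chr1:173857215-173880382. Mnda follows at chr1:173896339-173913087, Ifi203 at chr1:173920400-173942866, Ifi202b at chr1:173962569-173982844 and Ifi205 at chr1:174011998-174031755. The 8 genes thus span 682 kb. The start of Parp1, the gene floxed in the PARP1 line, is 6.59 Mb beyond the end of Ifi202b on the same chromosome. Among the members lie further family genes that were not in the set, AI607873 (Ifi207 in RefSeq), Pydc3 (Ifi208) and Pydc4 (Ifi213), which are described with the neighbours.

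As many family members are known to respond to interferon, the 250 bases before each RefSeq start were searched on both strands for an interferon-stimulated response element, here GAAA, any 2 bases and GAAA again. Promoter entries matched 7 of the 8 members, with 9 annotated starts. Of these 9 promoters 5 held a match, against 2.98% of all 32851 mouse promoters in the same RefSeq table, and they belonged to Mndal (both starts), Mnda, Ifi203 (1 of its starts) and Ifi205. For each gene 1 match is shown with 15 bases on either side, on the gene's own strand (minus) and with the match in capitals, so that the sequence the copies share can be seen. AI607873, a family gene that was higher in the PARP2 line, is shown with them. The match before the other Mndal start, on the opposite strand, and those of the family genes Pydc3 and Pydc4 are not shown.

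Mndal, chr1:173880199-173880238: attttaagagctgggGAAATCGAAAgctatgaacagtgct
Ifi203, chr1:173942503-173942542: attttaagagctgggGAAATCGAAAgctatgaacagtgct
Mnda, chr1:173913059-173913098: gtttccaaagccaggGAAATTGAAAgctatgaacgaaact
Ifi205, chr1:174031865-174031904: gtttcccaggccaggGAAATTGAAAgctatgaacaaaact
AI607873, chr1:173741826-173741865: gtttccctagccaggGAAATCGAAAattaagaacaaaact

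The stretches of Mndal and Ifi203 are identical, and over the whole window these promoters were 89.3% identical. The promoters of Mnda and AI607873 were 85.0% identical. The windows of Aim2, Pyhin1 and Ifi202b held no match to these letters. The Ifi202b window is shown because it belongs to the gene that varied most, with a match to the gamma-activated sequence TTCNNNGAA in capitals, a motif that 7.02% of all promoters hold on either strand.

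Ifi202b promoter, chr1:173982845-173983094, minus strand: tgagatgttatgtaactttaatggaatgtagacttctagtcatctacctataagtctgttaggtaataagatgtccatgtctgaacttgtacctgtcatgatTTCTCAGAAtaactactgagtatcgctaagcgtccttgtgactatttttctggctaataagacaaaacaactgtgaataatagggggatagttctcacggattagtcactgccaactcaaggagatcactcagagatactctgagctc

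A motif match describes the letters and is not evidence of binding, and no match says only that these letters are not in the window.

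Ifi202b was read almost entirely in the PARP2 WT libraries. Its counts were 1150 and 1028 there. Both PARP2CKO libraries and both PARP1 WT libraries had 0, and the PARP1CKO libraries had 0 and 13. In PARP2 WT IMCs this was 19.9 and 19.8 CPM. The 13 counts of PARP1CKO replicate 2 were 0.288 CPM (95% Poisson interval 0.153 to 0.492, counting error only). With a floor of 3 counts per library in place of 0, the PARP2 WT mean of 19.8 CPM was 353-fold above PARP2CKO and 287-fold above PARP1 WT. The 95% Poisson interval of a count of 0 reaches 3.69 counts, so these folds depend on the floor. The Cre-free controls of the lines therefore stood on opposite sides, and PARP2CKO IMCs stood with the PARP1 line. The counts carry no genotype, so whether the groups differ in sequence at this locus was not tested.

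**Figure D1:**
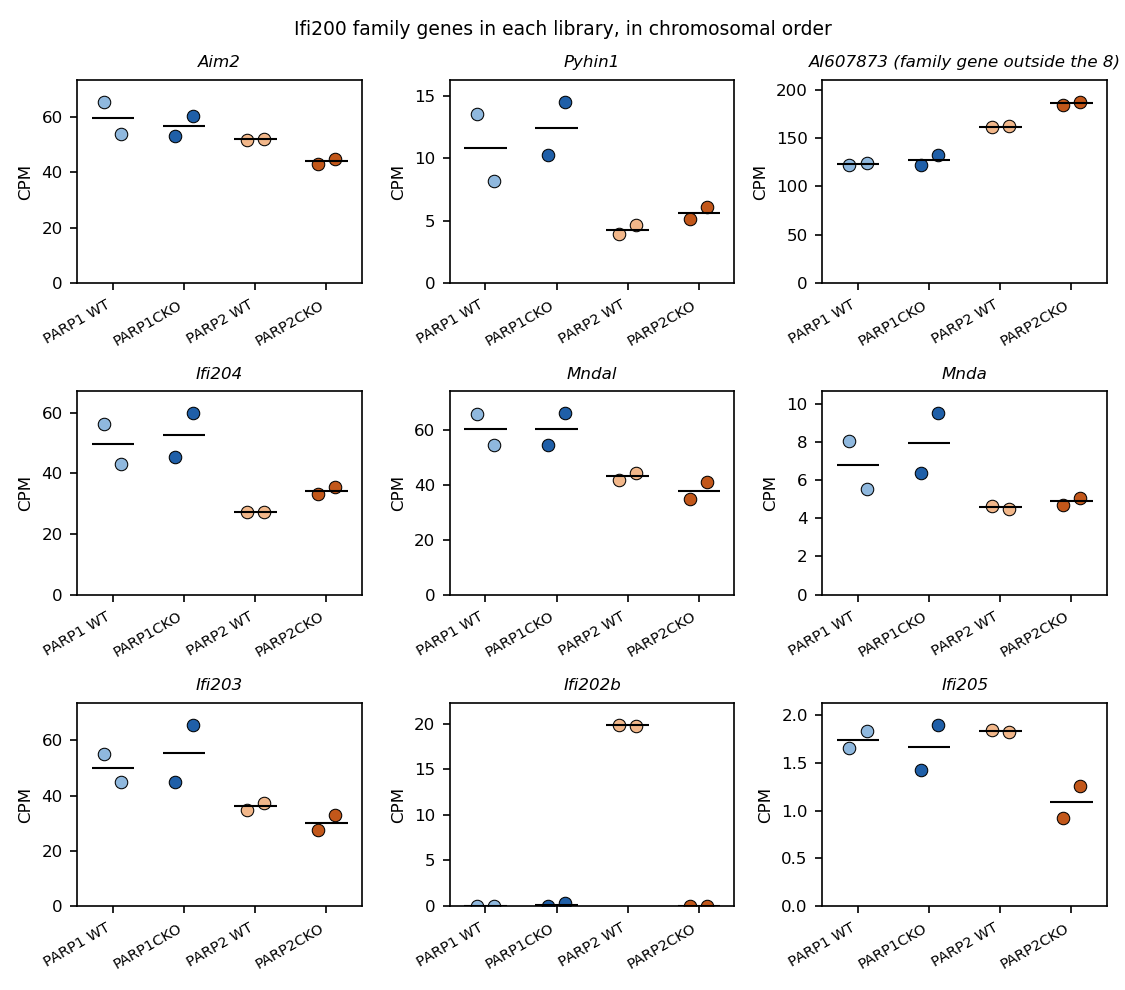
Level in CPM (vertical axes, from 0) of the 8 members and of AI607873 in each of the 8 libraries (points) with the group mean (line), in chromosomal order. Ifi202b is at 19.9 and 19.8 CPM in PARP2 WT and at or below 0.288 CPM in the other libraries, while Ifi204, Mndal, Mnda, Ifi203, Pyhin1 and Aim2 have lower means in both PARP2 line groups and AI607873 has higher ones.

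The reads of several members cannot be assigned to 1 gene with certainty. Of all 75-base windows (the read length) of the annotated transcripts, 0% of those of Ifi202b and of Aim2 also occurred in another gene. The share was 7.81% for Ifi203, 17.1% for Mndal, 20.7% for Ifi204 and 24.3% for Pyhin1, the last all with its close copy Ifi214. It was highest for Ifi205, at 45.2%, and for Mnda, at 63.6%, of which 40.6% of the Mnda windows were shared with Ifi205. How the authors counted reads that fit several genes is not given in the sources used here, so the values of Mnda and Ifi205 are the least certain. The annotated gene body of Mndal also overlaps that of Ifi203 in GENCODE M21, whereas their RefSeq positions given above do not overlap.

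**Figure D2:**
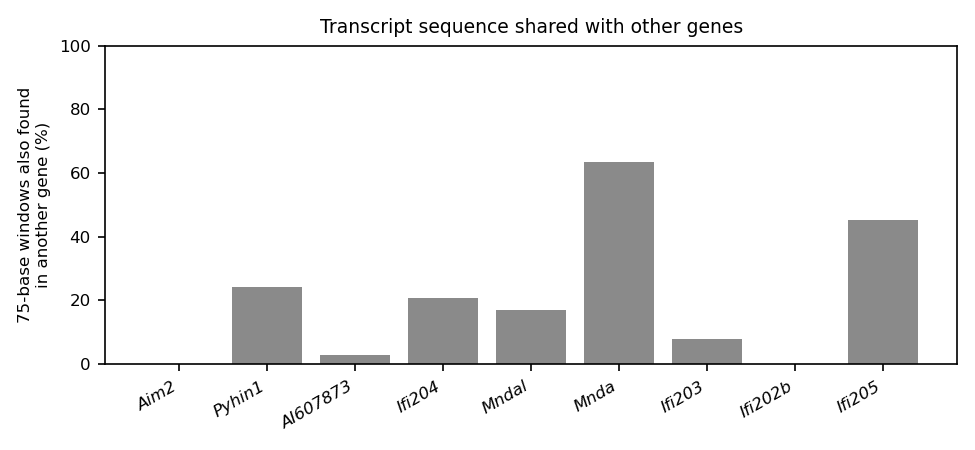
Share of 75-base transcript windows (percent, vertical axis) that also occur in another annotated gene, for each member and AI607873 (bars, 1 value per gene). Mnda has the highest share at 63.6% and Ifi202b and Aim2 have 0%.

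Between genes, levels were compared as CPM per kb of the longest coding transcript. Mndal was the most abundant member in every group, with group means of 29.8 CPM per kb in both PARP1 groups, 21.3 for the PARP2 WT group and 18.7 for the PARP2CKO group. Aim2 and Ifi204 followed, and their libraries overlapped in PARP1 WT, PARP1CKO and PARP2CKO but not in PARP2 WT, where Aim2 had 18.2 and Ifi204 11.9 CPM per kb. Ifi203 was next, at 8.06 to 14.7 CPM per kb over the group means. Mnda (2.56 to 4.45), Pyhin1 (1.24 to 3.61) and Ifi205 (0.677 to 1.14) formed the low end. In PARP2 WT IMCs Ifi202b, at 11.7 CPM per kb, stood just below Ifi204 and above Ifi203, whereas it was last in every other group.

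PARP1CKO against PARP1 WT asked whether loss of PARP1 in the myeloid lineage altered IMC transcripts. None of the 7 tested members passed the test, against 0.106% of all genes (14 genes). The libraries of the 2 groups overlapped for all 7, against 41.2% of all genes whose groups did not overlap. The log2 fold changes were -0.08 (Ifi205) to 0.23 (Mnda), with a median of 0.08 against 0.01 for all genes, and none of the 7 had an unadjusted p under 0.05. The sign depended on single libraries for each of the 7. Ifi203 was at 44.9 CPM in PARP1CKO replicate 1 and 65.7 CPM in replicate 2, and without replicate 2 its log2 fold change was -0.15 in place of 0.15. Without PARP1CKO replicate 2 or PARP1 WT replicate 2, Ifi204, Mnda, Mndal and Pyhin1 turned negative, Aim2 turned positive without PARP1CKO replicate 1 or PARP1 WT replicate 1, and Ifi205 turned positive without PARP1CKO replicate 1 (0.12) or PARP1 WT replicate 2 (0.000782).

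PARP2CKO against PARP2 WT asked the same for PARP2. Again 0 of the 7 tested members passed over all genes, against 0.053% of all genes (7 genes). The 2 groups did not overlap for any of the 7 members, against 37.2% of all genes. Their log2 fold changes had both signs, 4 negative and 3 positive, with a median of -0.19 (all genes, 0.00). An unadjusted p under 0.05 was found for 3 of the 7 members, Ifi205, Aim2 and Ifi204, against 4.83% of all genes.

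Ifi205, the member next to Ifi202b on the side of higher coordinates, had 1.85 and 1.83 CPM in the PARP2 WT libraries, and 0.92 and 1.26 CPM after PARP2 deletion. Both PARP2CKO libraries were the lowest of the 8. The log2 fold change was -0.76 (SE 0.21, unadjusted p = 0.00638, adjusted p = 0.840 in edgeR's quasi-likelihood test). The inflammasome sensor Aim2 had 51.5 and 52.0 CPM in the PARP2 WT libraries and 42.9 and 44.8 CPM in the PARP2CKO libraries (log2 fold change -0.24, SE 0.09, adjusted p = 0.937). The DNA sensor Ifi204 had 27.3 and 27.3 CPM in the PARP2 WT libraries and 33.1 and 35.3 CPM in the PARP2CKO libraries. Its log2 fold change was positive, at 0.33 (SE 0.14, adjusted p = 0.954).

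The values of the other members in this comparison were smaller or more spread. Ifi203 had 34.8 and 37.4 CPM in the WT libraries, against 27.4 and 33.1 CPM in the CKO libraries. Mndal was at 42.0 and 44.5 CPM and at 34.9 and 41.0 CPM in the same order. Both had lower values in PARP2CKO without passing the test (adjusted p = 0.954 for each). Mnda and Pyhin1 had log2 fold changes of 0.09 and 0.39.

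Whether PARP2 loss and PARP1 loss had unequal effects was tested directly. This test passed for 0 of the 7 members (0.0152% of all genes), and 1 of the 7 had an unadjusted p under 0.05, against 7.69% of all genes. The largest was that of Ifi205, -0.69 on the log2 scale (SE 0.30, unadjusted p = 0.0499, adjusted p = 0.649 in edgeR's quasi-likelihood test).

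**Figure D3:**
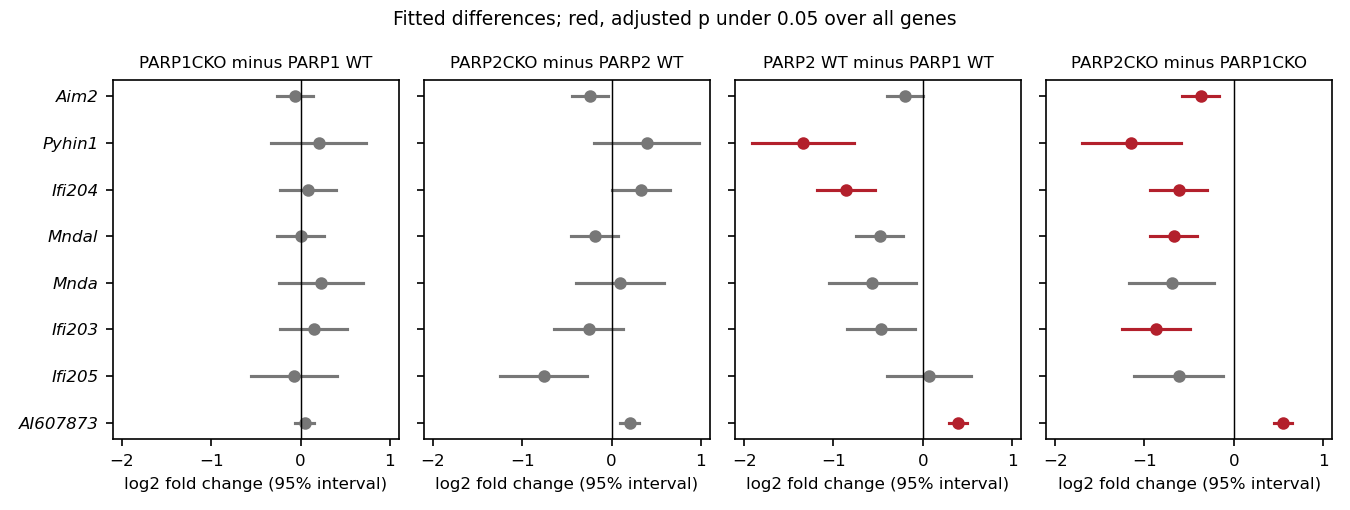
Fitted log2 fold change (horizontal axes) with its 95% interval for the 7 tested members and AI607873 in 4 comparisons (panels), with an adjusted p under 0.05 in red. No gene shown is red in the 2 comparisons of CKO with WT, while 2 and 5 members lie below 0 in red in the comparisons between lines and AI607873 lies above 0 in both.

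The line comparisons, which were not the aim of the study, showed larger differences. They set the PARP2 floxed line against the PARP1 floxed line, and line, litter, handling and the cell makeup of the cultures cannot be told apart in them. They use the same libraries as the CKO comparisons, so their values are not independent of those.

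In PARP2 WT against PARP1 WT IMCs, 2 of the 7 members fell (Ifi204 and Pyhin1) and 0 rose, against 1.24% of all genes lower and 3.16% called in either direction. The median log2 fold change of the members was -0.48 (all genes, 0.00), and 6 of the 7 did not overlap, all lower, against 25.2% of all genes. Ifi204 had 56.3 and 43.2 CPM in the PARP1 WT libraries and 27.3 CPM in both PARP2 WT libraries. Every PARP1 line library was above every PARP2 line library for Ifi204. The log2 fold change was -0.86 (SE 0.14, adjusted p = 0.0174). Pyhin1, which encodes another pyrin and HIN domain protein, had 13.5 and 8.16 CPM in the PARP1 WT libraries and 3.91 and 4.63 CPM in the PARP2 WT libraries, a log2 fold change of -1.34 (SE 0.25, adjusted p = 0.0286).

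Both calls were lost without some of the single libraries. Without PARP1 WT replicate 1, Ifi204 had a log2 fold change of -0.66 (adjusted p = 0.103) and Pyhin1 of -0.94 (adjusted p = 0.144). Without PARP2 WT replicate 1 or 2, Ifi204 kept its log2 fold change (-0.86 in each case) with an adjusted p of 0.0802 or 0.0809 from fewer libraries, and Pyhin1 had -1.22 or -1.46 (adjusted p = 0.147 or 0.0942). Without PARP1 WT replicate 2 both passed. With the replicate number as a block, Pyhin1 no longer passed (adjusted p = 0.0509). Mndal (-0.48, adjusted p = 0.0647), Mnda (-0.56, adjusted p = 0.206), Ifi203 (-0.47, adjusted p = 0.185) and Aim2 (-0.20, adjusted p = 0.276) also had negative log2 fold changes, and Ifi205 had 0.07.

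In PARP2CKO against PARP1CKO IMCs, 5 of the 7 members fell, against 5.34% of all genes lower and 10.3% called in either direction. The median log2 fold change was -0.67 (all genes, 0.00), and no member overlapped, against 28.4% of all genes lower without overlap. The log2 fold changes of the called members were -1.15 for Pyhin1, -0.87 for Ifi203, -0.67 for Mndal, -0.62 for Ifi204 and -0.37 for Aim2, with adjusted p between 0.0105 and 0.0343. For Ifi203 the PARP1CKO libraries had 44.9 and 65.7 CPM, and the PARP2CKO libraries 27.4 and 33.1 CPM. For Mndal they were at 54.5 and 66.3 CPM and at 34.9 and 41.0 CPM. Mnda (-0.70, adjusted p = 0.0707) and Ifi205 (-0.61, adjusted p = 0.114) did not pass. Leaving out PARP1CKO replicate 2 or PARP2CKO replicate 1 left 0 of the 7 called, and leaving out PARP2CKO replicate 2 left 2, Ifi203 and Mndal. Aim2 no longer passed with the replicate number as a block (adjusted p = 0.0559).

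Interferon response genes were compared in the same libraries. A list of 30 interferon-induced genes, such as the Ifit genes and the Oas genes, had 0 called in PARP1CKO against PARP1 WT (median log2 fold change 0.32) and 0 in PARP2CKO against PARP2 WT (median -0.22). In the former 30 of the 30 had a positive log2 fold change. An unadjusted p under 0.05 was found for 5 (16.7%, against 11.3% of all genes). Only 3 of the 30 had groups without overlap there, against 41.2% of all genes. The list's median in PARP1CKO replicate 1 lay between those of the PARP1 WT libraries (below). In PARP2CKO against PARP2 WT 29 had a negative log2 fold change, while the members were split as above. There 0 of the 30 had an unadjusted p under 0.05, against 4.83% of all genes. Without overlap 21 were lower and 1 was higher, against 37.2% of all genes in either direction. In the difference of these effects 0 of the 30 were called and 30 of 30 were negative, with a median of -0.64, and 8 had an unadjusted p under 0.05, against 7.69% of all genes. In PARP2 WT against PARP1 WT 3 of 30 fell (median -0.46), against 1.24% of all genes, which were Oas3 (-1.02), Oas2 (-0.77) and Oas1a (-0.59), all enzymes that make the activator of RNase L. In PARP2CKO against PARP1CKO 24 of 30 fell and 0 rose, against 5.34% of all genes lower, with a median of -1.18, led by Ifi44 (-2.64), Ifit1 (-2.05) and Ifit3 (-2.04). Without PARP1CKO replicate 2, PARP2CKO replicate 1 or PARP2CKO replicate 2 this count was 9, 2 or 14, and in PARP2 WT against PARP1 WT it was 1 without PARP1 WT replicate 1 or either PARP2 WT library. Oas1a also lost its call with the replicate block (adjusted p = 0.0694), which left 2. In PARP2 WT against PARP1 WT 6 of the 30 were called with the likelihood-ratio test, and 6 without a filter.

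By library, the median of the interferon list relative to its mean over the libraries was 0.44 and -0.05 for the PARP1 WT libraries and 0.22 and 0.90 for the PARP1CKO libraries, on the log2 scale. It was -0.26 and -0.20 for the PARP2 WT libraries and -0.64 and -0.34 for the PARP2CKO libraries. In the same order, the median over the 7 members was 0.42 and 0.13, 0.12 and 0.60, -0.25 and -0.15, and -0.50 and -0.27. PARP1CKO replicate 2 was the highest and PARP2CKO replicate 1 the lowest for both. B cell markers also differed between the lines (above), as did markers of basophils and mast cells, which summed to 23.4 to 32.1 CPM in the PARP1 line and 8.94 to 16.7 CPM in the PARP2 line. Erythroid markers summed to 6.13 to 12.1 and 2.55 to 3.46 CPM, and macrophage markers to 3293 to 3608 and 3762 to 4110 CPM, in the same order. Among the erythroid markers, Hba-a1 and Hba-a2 had the same counts in every library, as did Hbb-b1 and Hbb-bs. The erythroid sums may therefore hold the same globin reads more than once. Some sums also differed within a line. Basophil and mast cell markers had 13.6 to 16.7 CPM in PARP2 WT and 8.94 to 11.3 CPM in PARP2CKO. Neutrophil markers had 2033 to 2179 and 1754 to 1984 CPM in these groups, and erythroid markers 3.31 to 3.46 and 2.55 CPM. Erythroid markers had 6.13 to 7.34 CPM in PARP1 WT and 9.71 to 12.1 CPM in PARP1CKO. B cell and macrophage sums overlapped within each line. The part of these markers in the members' differences was not tested.

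**Figure D4:**
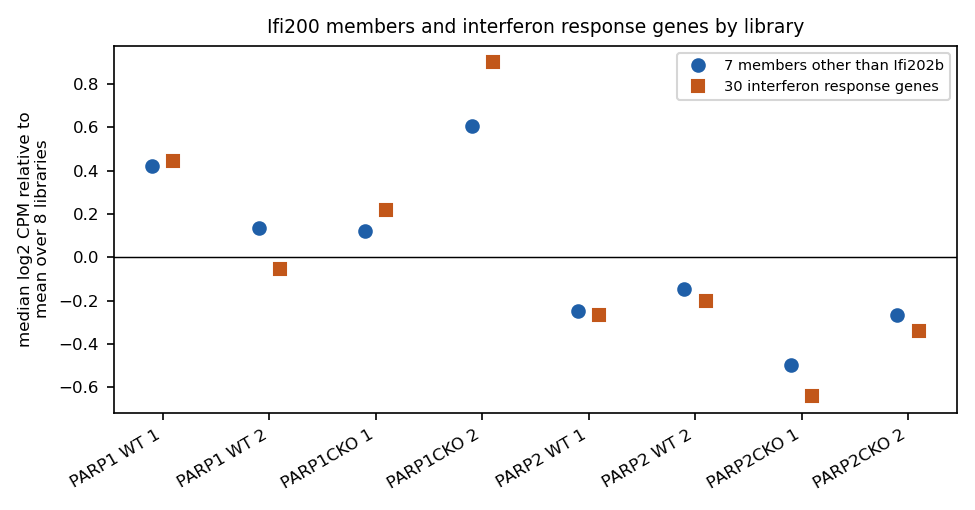
Median log2 CPM relative to the mean over the 8 libraries (vertical axis) of the 7 tested members (circles) and of 30 interferon response genes (squares) in each library. Both medians are highest in PARP1CKO replicate 2 (0.60 and 0.90) and lowest in PARP2CKO replicate 1 (-0.50 and -0.64).

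Across the 8 libraries the members other than Ifi205 tracked each other, with Pearson's r of log2 CPM between 0.69 (Ifi204 and Aim2) and 0.99 (Ifi204 and Pyhin1). Ifi205 was less alike, with r between 0.18 and 0.72. None of the 7 followed Ifi202b closely, with r between -0.62 (Ifi204) and 0.52 (Ifi205). These libraries share group differences and, for some pairs, reads, so the values are descriptions over 8 libraries.

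Of 25 tested genes of the wider DNA sensing and inflammasome pathway, 0 were called in either CKO comparison, against 0.106% and 0.053% of all genes. In PARP1CKO against PARP1 WT, 1 pathway gene was called with DESeq2, with the likelihood-ratio test and without a filter. There 6 of the 25 had an unadjusted p under 0.05 (24%, against 11.3% of all genes). In PARP2CKO against PARP2 WT 0 had such a p, against 4.83% of all genes. In PARP2 WT against PARP1 WT, Ikbke, a kinase that activates Irf3, rose (0.25 on the log2 scale) and Tmem173, which encodes STING, fell (-0.28). This was a share of 2 of 25, against 3.16% of all genes. The count was 4 with DESeq2, 4 with the likelihood-ratio test and 5 without a filter. In PARP2CKO against PARP1CKO, 6 of 25 fell and 2 rose, against 5.34% of all genes lower and 4.99% higher. Zbp1, a sensor of Z-form nucleic acids, had a log2 fold change of -1.49, Irf7, a transcription factor for type I interferon genes, of -1.22, and the inflammasome product Il1b of -0.93. Il1rn, the interleukin-1 receptor antagonist, rose by 0.42, and Pycard, the adaptor of Aim2, by 0.27. Without PARP1CKO replicate 2, PARP2CKO replicate 1 or PARP2CKO replicate 2, 1, 1 or 3 of the 25 were called in place of 8, and the calls of Ikbke and Tmem173 were lost without PARP1 WT replicate 1 or either PARP2 WT library, that of Ikbke also without PARP1 WT replicate 2. Ikbke was also lost with library size only (adjusted p = 0.105), Tmem173 with the replicate block (0.0708), both with the 4 libraries of the comparison, as were Il1rn and Pycard, and Il1b with the replicate block (0.0635).

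The neighbours of the members were then compared. Within 2 Mb of the outermost members the table held 81 other genes, of which 42 were tested. AI607873, the family gene between Pyhin1 and Ifi204, went against the members in the line comparisons. Its PARP1 WT libraries had 123 and 124 CPM and its PARP1CKO libraries 122 and 133 CPM. The PARP2 WT libraries both had 162 CPM and the PARP2CKO libraries 185 and 188 CPM. All 4 PARP2 line libraries were above all 4 PARP1 line libraries, and PARP2CKO was above PARP2 WT without overlap. The log2 fold change was 0.39 in PARP2 WT against PARP1 WT (adjusted p = 0.00429), 0.55 in PARP2CKO against PARP1CKO (adjusted p = 0.000433) and 0.20 in PARP2CKO against PARP2 WT (adjusted p = 0.538). Both calls held without any single library, and only 2.80% of its 75-base windows occurred in another gene. The other family genes, Pydc3 and Pydc4, were at 0.0346 to 0.796 CPM and were not called in any comparison.

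In PARP2CKO against PARP2 WT 1 of the 42 neighbours was called, Slamf7, against 0.053% of all genes. This count was 2 with DESeq2, 4 with the likelihood-ratio test and 3 without a filter. For the difference of effects it was 0, and 2, 2 and 1 with these alternatives. Slamf7, a SLAM family receptor of leukocytes, had 94.1 and 88.8 CPM in the PARP2 WT libraries and 139 and 132 CPM in the PARP2CKO libraries, with 118 to 144 CPM in the PARP1 line. The log2 fold change was 0.57 (SE 0.05, adjusted p = 0.00828), and the call was lost without PARP2CKO replicate 1 (adjusted p = 0.0789). As for Ifi202b, the PARP2 WT libraries stood apart from the other 6. An unadjusted p under 0.05 was found for 16 of the 42 neighbours (38.1%), 12 higher and 4 lower, against 4.83% of all genes. In PARP1CKO against PARP1 WT 0 neighbours were called and 5 of 42 (11.9%) had such a p, against 11.3% of all genes.

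In PARP2 WT against PARP1 WT 9 of the 42 neighbours were called (21.4%, against 3.16% of all genes), 3 higher and 6 lower, and 20 of 42 (47.6%) had an unadjusted p under 0.05, against 18.9% of all genes. The called genes with the largest differences were Kcnj10 (1.77), Igsf8 (0.76), Cd244 (-0.76), Slamf9 (-0.70) and Alyref2 (-0.47). Cd244 and Alyref2 lost their call with the replicate block (adjusted p = 0.0664 and 0.0675). Alyref2 also lost it with DESeq2 (0.107) and with the 4 libraries of the comparison (0.0985). Kcnj10, Cd244 and Alyref2 lost their call whichever of these 4 libraries was left out. Their log2 fold changes were then 1.65 to 1.88, -0.81 to -0.71 and -0.55 to -0.38. Slamf9 lost its call without PARP1 WT replicate 1 or PARP2 WT replicate 2, with -0.80 to -0.60 over all 4 fits. Kcnj10, a potassium channel gene, was at 1.63 and 1.38 CPM in PARP2 WT and at 0.373 to 0.671 CPM in the other libraries. Cd244 and Slamf9 are SLAM family receptors like Slamf7. Cd244 was at 4.74 and 4.73 CPM in PARP2 WT and at 5.23 to 8.30 CPM elsewhere, and Slamf9 was at 6.78 and 6.48 CPM against 8.59 to 11.5 CPM. In these 3 genes the PARP2 WT libraries stood apart from the other 6. Without PARP1 WT replicate 1 or 2, or PARP2 WT replicate 1 or 2, 3, 5, 4 or 3 neighbours were called, with Igsf8 in each case.

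In PARP2CKO against PARP1CKO 5 of the 42 neighbours were called (11.9%, against 10.3% of all genes): Slamf8 (1.26), AI607873 (0.55) and Igsf8 (0.43) rose, and Fcer1a (-1.62) and Kmo (-1.05) fell. Fcer1a, the alpha chain of the IgE receptor, is also one of the basophil and mast cell markers that differed between the lines. It had 4 to 18 counts per library, DESeq2 gave it no adjusted p, and its call was lost without each of the 4 libraries, without a filter (0.0759), with the 4 libraries of the comparison and with the replicate block (0.0600). Without PARP1CKO replicate 2, PARP2CKO replicate 1 or PARP2CKO replicate 2, 3, 2 or 3 neighbours were called, with Slamf8 and AI607873 in each case. Here 9 of 42 neighbours (21.4%) had an unadjusted p under 0.05, against 26.6% of all genes. The share of neighbours past this threshold was thus 33.3 and 28.7 percentage points above that of all genes in the pairwise comparisons that contain PARP2 WT, against 0.645 and -5.21 points in those that do not. For the difference of effects, which also contains PARP2 WT, 13 of 42 neighbours passed it, against 7.69% of all genes, an excess of 23.3 points. This contrast was not itself tested, and the comparisons share libraries.

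The neighbours with an unadjusted p under 0.05 in PARP2CKO against PARP2 WT lay mainly on the side of lower coordinates, 14 of 33 tested genes there, with 1 of 3 between the members and 1 of 6 on the other side. In bins of 5 Mb from the Ifi202b start, an alternative added after the data were seen, the share was 24.2% of 66 genes in the bin on the side of lower coordinates and 4 of 16 genes in the one on the other side. In the other bins out to 25 Mb on the lower side and 20 Mb on the higher side it lay between 0% and 12.5%. In PARP1CKO against PARP1 WT the same pair of bins had 7.58% of 66 genes and 6 of 16 genes, against 11.3% of all genes, so that the thinly filled bin on the side of higher coordinates was above the share of all genes there too. In PARP2 WT against PARP1 WT the pair had 36.4% and 31.2%, against 18.9% of all genes, and 5 of the 7 bins farther away were also above that share, at 25% to 31.6%, so that its excess was not limited to the surroundings of the members. The nearest tested gene on the side of lower coordinates, Ackr1, was at 0.101 to 0.269 CPM, had an unadjusted p of 0.0284 in PARP2CKO against PARP2 WT (log2 fold change -1.07) and passed the adjusted threshold in no comparison.

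**Figure D5:**
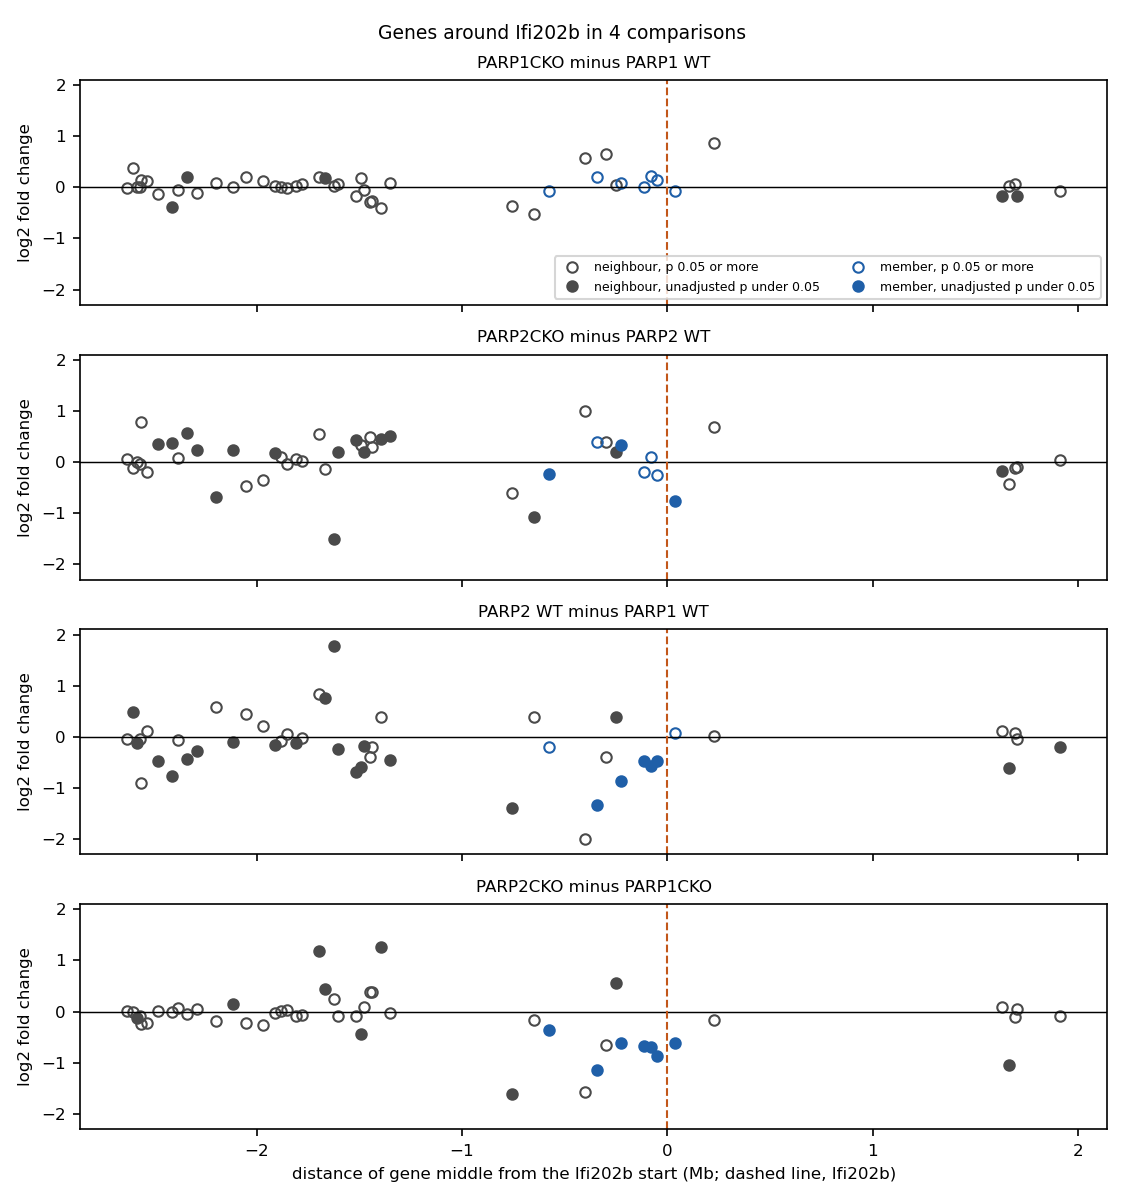
Log2 fold change (vertical axes) of each tested gene within 2 Mb of the outermost members against its distance in Mb from the Ifi202b start (horizontal axis), for 7 members (blue) and 42 neighbours (grey) in 4 comparisons, filled where the unadjusted p was under 0.05. Filled neighbours are 16 of 42 in PARP2CKO minus PARP2 WT and 20 of 42 in PARP2 WT minus PARP1 WT, and 5 and 9 of 42 in the other comparisons.

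The tested genes whose log2 CPM was most like that of Ifi202b over the 8 libraries were Kcnj10 (Pearson's r = 0.93), Ear12 and Ear3 (0.93 each, with the same counts in every library), Lmo1 (0.92) and Zbtb17 (0.92). Kcnj10 lies at chr1:172341210-172374085, 1.63 Mb from the Ifi202b start. Lmo1 and Zbtb17 lie on chromosomes 7 and 4. The levels of these genes were far less separated than those of Ifi202b: Zbtb17 was at 31.6 and 32.9 CPM in PARP2 WT and at 29.7 to 31.0 CPM elsewhere.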

How the data were processed

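Single-end 75-base reads of stranded total RNA libraries (4 µg RNA) were trimmed, mapped to mm10 with TopHat2 2.0.12, marked for duplicates with Picard 1.127 and counted per gene with featureCounts by the authors, who deposited raw counts. The annotation, strand setting and treatment of duplicates and of reads that fit several genes are not given in the sources used here. Counts were tested with edgeR 4.0.16 (R 4.3.3): filterByExpr, TMM factors (0.965 to 1.03) and the quasi-likelihood test on all 8 libraries, with Benjamini-Hochberg adjustment over 13197 genes and a threshold of 0.05. CPM used TMM-scaled library sizes, and log2 CPM a prior count of 2. The test was checked on simulated counts, and the outcome is not reported here. Replicates differed by more than sampling noise (chi-square per gene 7.13 to 10.6). Symbols were matched to RefSeq positions for 23902 genes, 1352 by synonym. DESeq2 1.42.0, other scalings, filters and thresholds, a likelihood-ratio test, the 4 libraries of a comparison, a replicate block and leaving out each library were alternatives. Promoter alignments used Biopython 1.88 and figures matplotlib 3.10.9.

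The members and lists were chosen with earlier results of these data known. Genes named are the 8 members, Parp1 and Parp2, up to 3 called genes with the largest change per list and comparison, up to 5 called neighbours and the nearest tested gene on each side, and the 5 genes most like Ifi202b; 1 gene so named is not reported here. Values of AI607873, Pydc3 and Pydc4 in all comparisons, of Slamf7 and of markers were added after they were seen. Marker lists of T and NK cells (2.14 to 3.50 CPM), dendritic cells (13.8 to 27.6), erythroid cells (2.55 to 12.1), macrophages (3293 to 4110) and neutrophils (1754 to 2264) were summed likewise.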

Additional observations from a re-analysis of the deposited data

How the results depend on the processing

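The PARP1CKO effect, the PARP2CKO effect and their difference, each against the line's own WT, gave 86, 27 and 46 called genes with DESeq2, 146, 39 and 72 with the likelihood-ratio test, and 101, 26 and 61 without a filter, in place of 14, 7 and 2. PARP2 WT against PARP1 WT gave 910 with the likelihood-ratio test, 872 without a filter and 779 at an adjusted p under 0.1, in place of 417. At that threshold PARP1CKO against PARP1 WT gave 28, and PARP2CKO against PARP1CKO 2229 in place of 1363. In PARP2 WT against PARP1 WT, 4 of the 7 members were called without a filter and 1 with the replicate block. None of the 7 members was called in either comparison of CKO with WT, or in their difference, under any alternative run. For their difference 1 interferon response gene was called with DESeq2. With the likelihood-ratio test or without a filter 1 pathway gene was called for it.

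Leaving out 1 library at a time gave 1 to 34, 6 to 19 and 1 to 16 genes in the first 3 comparisons, 85 to 319 in PARP2 WT against PARP1 WT and 234 to 1458 in PARP2CKO against PARP1CKO, with 0 to 2 and 0 to 6 members called in the last pair. The 7 members and AI607873 changed sign without a library in PARP1CKO against PARP1 WT: Ifi203 (-0.15 to 0.40), Ifi204 (-0.13 to 0.28), Ifi205 (-0.29 to 0.12), Mnda (-0.0879 to 0.51), Mndal (-0.15 to 0.14), Pyhin1 (-0.13 to 0.60), Aim2 (-0.21 to 0.0788) and AI607873 (-0.0155 to 0.10). So did the difference of effects for Mnda (-0.41 to 0.18) and Pyhin1 (-0.21 to 0.53). The cause was not tested. Mndal, at 0.00164 in PARP1CKO against PARP1 WT, became -0.000556 with DESeq2 size factors, -0.00248 with library size only, -0.00152 with DESeq2, -0.00189 with the 4 libraries of the comparison and -0.00380 with the replicate block.

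For Ifi202b, library size only gave a PARP2 WT mean of 19.7 CPM and bounds of 359-fold over PARP2CKO and 279-fold over PARP1 WT, and leaving out 1 library gave 319 to 394 and 256 to 328. The share of neighbours with an unadjusted p under 0.05 in PARP2CKO against PARP2 WT was 26.2% to 33.3% without 1 library. The differences of replicate 2 from replicate 1 correlated across genes at -0.13 between the groups of the PARP1 line and 0.15 in the PARP2 line. With only 2 libraries per group, this cannot decide whether same-numbered libraries belong together. Crossing the numbers, added after seeing the data, gave 18, 7, 2, 378 and 1218 genes. The fit on the libraries of a comparison was not run for the difference of effects. Only 2 libraries per group limit the precision.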
